A study of Mus musculus with 4 samples.

Results

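Mmp2, Etl4 and Ctse are 3 of the 32285 genes counted by single-cell RNA-Seq in LSK cells of mouse bone marrow, which lack lineage markers and carry Sca-1 and cKit. They were selected by symbol because earlier results from these same cells had shown lower levels in knockout than in wild-type cells, so the genotype difference over all cells is given as a description and supports nothing. Wild-type cells came from Sin3B F/F mice, which carry floxed alleles and no Cre. Knockout cells came from Sin3B F/F; Vav1-iCre+ mice (Sin3B H-/-), in which the Vav1 promoter drives the recombinase in blood-forming cells. Mice were untreated, male at homeostasis, or had received 100 mg/kg 5-fluorouracil (5-FU) intraperitoneally 9 days earlier. The sources used here give no age for the mice. The series holds 4 samples, a cDNA and a hashtag library per condition, and each cDNA library mixed both genotypes. LSK cells of 2 mice per genotype were pooled, and the antibody tag of each pool (B0096 anti-CD45 for wild type, B0157 anti-CD45.2 for knockout) was taken from the study's methods. Each condition therefore had 1 pool per genotype, no test between genotypes was possible, and all 95% intervals below cover counting error only.

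The LSK fraction holds hematopoietic stem cells and the multipotent progenitors that give rise to myeloid, megakaryocyte-erythroid and lymphoid cells. Sin3B is a scaffold protein of histone deacetylase complexes that repress transcription, and it binds promoters of cell cycle genes. Mmp2 encodes gelatinase A, a secreted metalloproteinase that cleaves gelatin and basement membrane collagen and is activated at the cell surface by the membrane enzyme Mmp14 together with the inhibitor Timp2. Ctse encodes cathepsin E, an aspartic protease of the endosomes of immune and gastric cells. Etl4, also called Skt or sickle tail, was found by gene trapping and is needed for the intervertebral discs, and its product is related to the adaptor protein Srcin1.

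Counts are of unique molecular identifiers (UMIs), and a level is given as CPM, the UMIs of a gene scaled to 1000000 UMIs of the cells in question. After removal of extreme cells and of cells with lineage genes, the homeostasis library gave 10319 wild-type and 4137 knockout cells, with a median of 6987 and 6619 UMIs. The 5-FU library gave 4880 and 3310 cells, with 9304.5 and 10960. Sin3b, the targeted gene, was lower in the pools labelled knockout, at 23.2 against 81.8 CPM at homeostasis and 15.1 against 112 CPM after 5-FU. Of the barcodes called as cells, 76 occurred in both libraries. Cells without a hashtag call made up 26.3% of the homeostasis library and 25.8% of the 5-FU library and entered no comparison. Levels were compared between genotypes within a library and not between conditions, because condition and library cannot be told apart.

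Stem, myeloid, megakaryocyte-erythroid and lymphoid marker-positive cells were those with UMIs of at least 2 different markers of a list of 10. Markers found in over 50% of the kept cells of either library were not counted, which left 7 stem markers (Procr, Fgd5, Slamf1, Hoxb5, Tcf15, Ctnnal1, Esam), 9 myeloid, 9 megakaryocyte-erythroid and 8 lymphoid ones. The stem markers left out, Hlf, Mecom and Mllt3, were 1.30-fold, 1.54-fold and 1.73-fold higher inside the stem gate than outside it in wild-type cells at homeostasis, and 1.16-fold, 1.47-fold and 2.03-fold higher after 5-FU. A cell could be positive for several classes, and cells positive for none are called marker-low. After 5-FU, 55 of 330 myeloid-positive and 291 of 1649 megakaryocyte-erythroid-positive knockout cells were positive for that class only. The same held for 150 of 597 lymphoid-positive and 722 of 2034 stem-positive knockout cells. In wild type the counts were 181 of 799, 491 of 1871, 377 of 1220 and 828 of 2138, in that order. At homeostasis the smallest part was in myeloid-positive cells, 608 of 1981 in wild type and 141 of 448 in knockout. At homeostasis the stem gate took 1678 wild-type (16.3%) and 1101 knockout cells (26.6%). After 5-FU it took 2138 (43.8%) and 2034 (61.5%). A gate that asks for UMIs favours deep cells. After 5-FU the median depth of wild-type cells was 11095.5 UMIs in the stem gate and 5718 in marker-low cells, and myeloid-positive cells had 13403 UMIs in the wild-type and 19253.5 in the knockout pool.

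Of the 3 genes, Ctse had the highest counts. The gene (ENSMUSG00000004552) spans 37.2 kb on the plus strand, chr1:131638306-131675505 in GENCODE M21 (GRCm38), and no other annotated gene overlaps it. At homeostasis the wild-type pool stood at 156.5 CPM (154 to 159, 13174 UMIs) and the knockout pool at 61.4 CPM (58.8 to 64.2, 1978 UMIs). After 5-FU the pools stood at 16.5 CPM in wild type (15.5 to 17.7, 872 UMIs) and 7.98 CPM in knockout (7.17 to 8.86, 349 UMIs). The knockout pool was lower in each library, by 2.55-fold (2.43 to 2.67) at homeostasis and 2.07-fold (1.83 to 2.35) after 5-FU, and the intervals of the pools did not overlap. A Ctse UMI was found in 65.2% (wild type) and 33.5% (knockout) of the cells at homeostasis, or 44.7% and 21.1% when each cell was thinned to 4000 UMIs. After 5-FU the shares were 15.4% and 9.58%, or 6.69% and 3.62% when thinned. No cell class known to lack these genes was identified, so the share that free RNA alone would give was not measured.

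Mmp2 was counted far less often. The gene (ENSMUSG00000031740) covers 26.1 kb of the plus strand at chr8:92827291-92853420 (GRCm38), with no overlapping gene, and starts 20.1 Mb beyond the end of Sin3b on the same chromosome. At homeostasis its level was 6.93 CPM in wild type (6.38 to 7.51, 583 UMIs) against 2.80 CPM in knockout (2.25 to 3.44, 90 UMIs). After 5-FU its level was 4.70 CPM in wild type (4.14 to 5.33, 248 UMIs) against 0.846 CPM in knockout (0.596 to 1.17, 37 UMIs). These are 2.47-fold (1.98 to 3.13) and 5.49-fold (3.92 to 8.08) lower levels in the knockout pools. The share of cells with a UMI was 5.35% in wild type and 2.10% in knockout at homeostasis (3.10% and 1.18% when thinned), and 4.53% and 0.967% after 5-FU (2.56% and 0.413% when thinned).

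Etl4 (ENSMUSG00000036617) is the longest of these genes, 901 kb on the plus strand at chr2:19909780-20810713 (GRCm38). Of 10 annotated genes that overlap it, 3 are in the count tables, all on the minus strand, and they held between 0 and 8 UMIs in any pool. At homeostasis Etl4 was at 8.58 CPM in wild type (7.96 to 9.23, 722 UMIs) against 3.91 CPM in knockout (3.26 to 4.66, 126 UMIs). After 5-FU it was at 2.35 CPM in wild type (1.96 to 2.80, 124 UMIs) against 0.549 CPM in knockout (0.352 to 0.817, 24 UMIs). The knockout pools were 2.18-fold (1.81 to 2.67) and 4.21-fold (2.75 to 6.94) lower. A UMI was present in 6.03% and 2.49% of cells at homeostasis (3.27% and 1.30% when thinned) and in 2.40% and 0.634% after 5-FU (1.24% and 0.318% when thinned).

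RefSeq (GRCm38.p6) lists 3 promoter windows for Etl4 and none was given for Mmp2 or Ctse. The 250 bases before the transcript start are shown for the 2 Etl4 starts at which these bases touch no annotated Etl4 exon, since they are the members' only promoter letters at hand and Sin3B complexes are known to act with E2F factors. Capitals mark the E2F core (the letters TTCCCGC, the variant TTCGCGC, the variant TTGGCGC or the variant TTGCCGC, searched on both strands). The cell cycle homology region (TTTGAA or TTCGAA, both strands) was searched as well. The form of the E2F motif was chosen after the letters had been seen.
Etl4 start A (chr2:20509797-20510046, plus strand): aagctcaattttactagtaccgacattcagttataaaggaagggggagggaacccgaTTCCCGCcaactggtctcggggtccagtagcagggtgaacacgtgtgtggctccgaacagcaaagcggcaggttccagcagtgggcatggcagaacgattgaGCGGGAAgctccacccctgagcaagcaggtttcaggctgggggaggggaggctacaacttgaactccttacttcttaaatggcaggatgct
Etl4 start B (chr2:20519263-20519512, plus strand): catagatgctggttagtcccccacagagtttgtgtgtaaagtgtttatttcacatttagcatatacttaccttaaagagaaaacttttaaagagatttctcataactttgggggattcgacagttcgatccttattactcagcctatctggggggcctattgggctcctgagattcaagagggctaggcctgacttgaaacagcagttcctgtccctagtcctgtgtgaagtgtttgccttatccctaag
Start A holds 2 E2F matches and start B none, and neither holds the cell cycle homology region. The third Etl4 window (chr2:20289663-20289912), which is not shown because it touches an annotated exon, holds 0 matches of either motif. Over all 32851 promoter windows of this length, 7.89% held at least 1 E2F match, 0.703% held 2 or more, and 17.1% held the cell cycle homology region. The counts are of 3' tags, so they do not show which start was used.

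In stem marker-positive cells the genotype difference was seen for all 3 genes in each library. Mmp2 was at 7.84 CPM in wild-type (126 UMIs) and 2.05 CPM in knockout stem-positive cells (19 UMIs) at homeostasis, 3.74-fold lower (2.35 to 6.55). After 5-FU Mmp2 was at 3.02 CPM (81 UMIs) and 0.854 CPM (25 UMIs), 3.48-fold lower (2.23 to 5.77). Etl4 was at 10.9 CPM (175 UMIs) and 3.13 CPM (29 UMIs) at homeostasis, 3.43-fold lower (2.34 to 5.34). After 5-FU Etl4 was at 2.35 CPM (63 UMIs) and 0.547 CPM (16 UMIs), 4.19-fold lower (2.45 to 7.96). Wild-type and knockout intervals were apart for both genes in both libraries. Ctse was at 152 CPM (2447 UMIs) and 60.4 CPM (559 UMIs) at homeostasis, 2.52-fold lower (2.30 to 2.77). After 5-FU Ctse was at 17.4 CPM (468 UMIs) and 7.48 CPM (219 UMIs), 2.33-fold lower (1.98 to 2.75). Of the 7 counted stem markers, 4 were themselves over 1.5-fold higher in knockout cells in at least 1 library (Procr, Slamf1, Hoxb5 and Tcf15). Gating without them gave a log2 ratio of -2.94 for Mmp2 and -1.03 for Etl4 at homeostasis, against -1.90 and -1.78 with them, and -2.72 for Etl4 after 5-FU against -2.07. Cells positive for the stem class only gave -2.92 for Mmp2 and -2.73 for Etl4 at homeostasis, a gate of 1 marker -1.26 for Mmp2 at homeostasis and a gate of 3 markers -2.7996 for Etl4 after 5-FU. With cells of at least 4000 UMIs thinned to 4000 before gating, the interval after 5-FU reached 0 for Etl4, at -0.83 (-2.84 to 0.92), and for Mmp2, at -1.78 (-4.44 to 0.02).

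For the background, genes with at least 50 UMIs over both pools were counted as lower when the knockout level was 2-fold or more below the wild-type level (log2 ratio of -1 or less). Over all kept cells this held for 292 of 15546 genes at homeostasis (1.88%) and 223 of 13530 after 5-FU (1.65%), and for all 3 members in each, which the selection had fixed. In stem-positive cells it held for 1.32% of genes at homeostasis and 1.38% after 5-FU, and again for all 3 members. These gates contain the same cells from which the members were selected, so the counts are not independent of the selection.

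In myeloid marker-positive cells the difference at homeostasis was clear of counting error for Ctse, while for Mmp2 and Etl4 this depended on the processing. Ctse was at 142 CPM in wild type against 58.6 CPM in knockout at homeostasis, 2.42-fold lower (2.15 to 2.74), and at 14.4 and 6.92 CPM after 5-FU, 2.06-fold lower (1.497 to 2.94). With cells of this class only, its log2 ratio after 5-FU was -2.18 (-5.59 to -0.49) against -1.05. Mmp2 was at 5.27 CPM (114 UMIs) and 3.21 CPM (16 UMIs) at homeostasis, a ratio of 1.60 whose interval (0.969 to 2.97) includes no difference. Etl4 was at 6.15 CPM (133 UMIs) and 4.21 CPM (21 UMIs), a ratio of 1.43 (0.917 to 2.44). The interval lay wholly on the side of lower knockout levels under 3 of the alternatives for Mmp2 and 5 for Etl4, including a gate of 1 marker, with log2 ratios of -0.90 (-1.40 to -0.45) and -0.69 (-1.11 to -0.31). The values furthest from the main ones were -0.08 for Mmp2 with the 80% tag rule (-1.32 to 0.85) and -1.77 for Etl4 with cells of this class only (-5.17 to -0.12). After 5-FU Mmp2 was at 4.50 CPM (55 UMIs) and 0.752 CPM (5 UMIs), 5.49-fold lower (2.41 to 19.1). This log2 ratio of -2.46 depended on the hashtag rule, with -1.41 at the stricter HTODemux quantile (-3.02 to -0.31) and -3.54 with the 80% tag rule (-6.93 to -1.92). No Etl4 UMI was found in 330 knockout myeloid-positive cells after 5-FU, whose interval reaches up to 0.555 CPM, against 15 UMIs or 1.23 CPM in wild type. The counting interval of the ratio gives a level at least 1.95-fold lower. With a floor of 3 UMIs (0.451 CPM) in the knockout pool and the wild-type count taken as it stands, the ratio would be 2.72-fold, which is not a bound. Thinning to 4000 UMIs brought the intervals of all 3 genes after 5-FU to include 0. Ctse then had a log2 ratio of -0.80 (-3.38 to 0.77), and Mmp2 and Etl4 had no knockout UMI left, with upper limits of 0.28 and 3.02. The upper limit of Etl4 was also above 0 with 3 markers (1.22) and with cells of this class only (1.93), again at 0 knockout UMIs. Under the alternatives that left Etl4 UMIs in the knockout pool, its log2 ratio was -2.29 with the 80% tag rule (-8.23 to -0.08) and -2.94 with 1 marker (-5.49 to -1.49). At homeostasis 1 of 3 members passed the 2-fold line, with 1.47% of genes, and after 5-FU both members with enough UMIs did, with 1.12% of genes.

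In megakaryocyte-erythroid marker-positive cells all 3 genes were lower in knockout cells in both libraries, beyond counting error. Ctse was at 164 and 60.6 CPM at homeostasis, 2.70-fold lower (2.47 to 2.96), and at 16.7 and 7.76 CPM after 5-FU, 2.15-fold lower (1.82 to 2.55). Mmp2 was at 5.55 CPM (102 UMIs) and 2.64 CPM (24 UMIs) at homeostasis, 2.07-fold lower (1.34 to 3.43). After 5-FU Mmp2 was at 2.74 CPM (71 UMIs) and 0.515 CPM (14 UMIs), 5.17-fold lower (2.97 to 10.2). Etl4 was at 7.998 CPM (147 UMIs) and 3.41 CPM (31 UMIs) at homeostasis, 2.31-fold lower (1.58 to 3.57). After 5-FU Etl4 was at 1.35 CPM (35 UMIs) and 0.294 CPM (8 UMIs), 4.38-fold lower (2.09 to 11.5). All 3 members passed the 2-fold line at homeostasis, as did 1.36% of genes, and both members with enough UMIs did after 5-FU, as did 1.18% of genes. At homeostasis the interval reached 0 for Mmp2 with thinned cells, at a log2 ratio of -1.24 (-2.91 to 0.03), and with an 80% tag rule, at -0.59 (-1.66 to 0.26), and for Etl4 with thinned cells, at -0.18 (-1.5005 to 0.998), and with 3 markers, at -0.78 (-1.76 to 0.06). After 5-FU it did so for Etl4 with thinned cells (0 knockout UMIs, upper limit 1.39) and with cells of this class only (-1.63, up to 0.94).

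In lymphoid marker-positive cells the levels again were lower in knockout cells, but several of these differences depended on the gate. Ctse was at 156 and 62.3 CPM at homeostasis, 2.49-fold lower (2.29 to 2.72), and at 16.8 and 8.52 CPM after 5-FU, 1.97-fold lower (1.55 to 2.53). Mmp2 was at 6.42 CPM (229 UMIs) and 3.08 CPM (29 UMIs) at homeostasis, 2.05-fold lower (1.41 to 3.18). After 5-FU Mmp2 was at 3.91 CPM (65 UMIs) and 0.852 CPM (9 UMIs), 4.38-fold lower (2.27 to 10.47). Etl4 was at 7.01 CPM (250 UMIs) and 4.57 CPM (43 UMIs) at homeostasis, 1.52-fold lower (1.11 to 2.18). This log2 ratio of -0.61 was -1.82 with thinned cells (-4.35 to -0.41) and -1.16 with the 80% tag rule (-2.25 to -0.35). After 5-FU Etl4 was at 1.80 CPM (30 UMIs) and 0.379 CPM (4 UMIs), 4.30-fold lower (1.68 to 18.6). At homeostasis 2 of 3 members passed the 2-fold line, with 1.76% of genes, and after 5-FU 1 of the 2 with enough UMIs did, with 1.17% of genes. With thinned cells the interval included 0 after 5-FU for all 3 genes, at log2 ratios of 0.22 for Ctse (-0.81 to 1.11), -1.68 for Mmp2 (-7.62 to 0.50) and -0.28 for Etl4 (-6.29 to 2.43), and at homeostasis for Mmp2 (-0.66, -2.02 to 0.33). With 3 markers it included 0 at homeostasis for Mmp2 (-0.56, -1.57 to 0.24) and Etl4 (-0.49, -1.28 to 0.17), and with cells of this class only after 5-FU for Etl4 (-1.51, up to 0.89). After 5-FU the log2 ratio of Mmp2, -2.13, was -1.41 at the stricter HTODemux quantile (-2.67 to -0.47) and -2.85 with 1 marker (-3.73 to -2.15), and that of Etl4, -2.10, was -2.97 at that quantile (-8.89 to -0.95).

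Whether a ratio differed between classes could not be tested with 1 pool per genotype, and classes share cells. At homeostasis the log2 ratio of Etl4 was -1.78 in stem-positive cells (-2.42 to -1.22) and -0.61 in lymphoid-positive cells (-1.12 to -0.15), and these intervals do not overlap. They did overlap under 7 of the 12 alternatives that give an interval (1 marker, 3 markers, the stricter HTODemux quantile, at least 5000 UMIs a cell, thinned cells, the 80% tag rule, and a stem gate without the markers that differ). For Mmp2 the lowest log2 ratio at homeostasis was -1.90 in stem-positive cells (-2.71 to -1.23) and the highest -0.68 in myeloid-positive cells (-1.57 to 0.05), with overlapping intervals. For Ctse the log2 ratios of the 4 classes lay between -1.43 and -1.27 at homeostasis and between -1.22 and -0.98 after 5-FU. After 5-FU the intervals of the 4 classes overlapped for each gene.

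**Figure D1:**
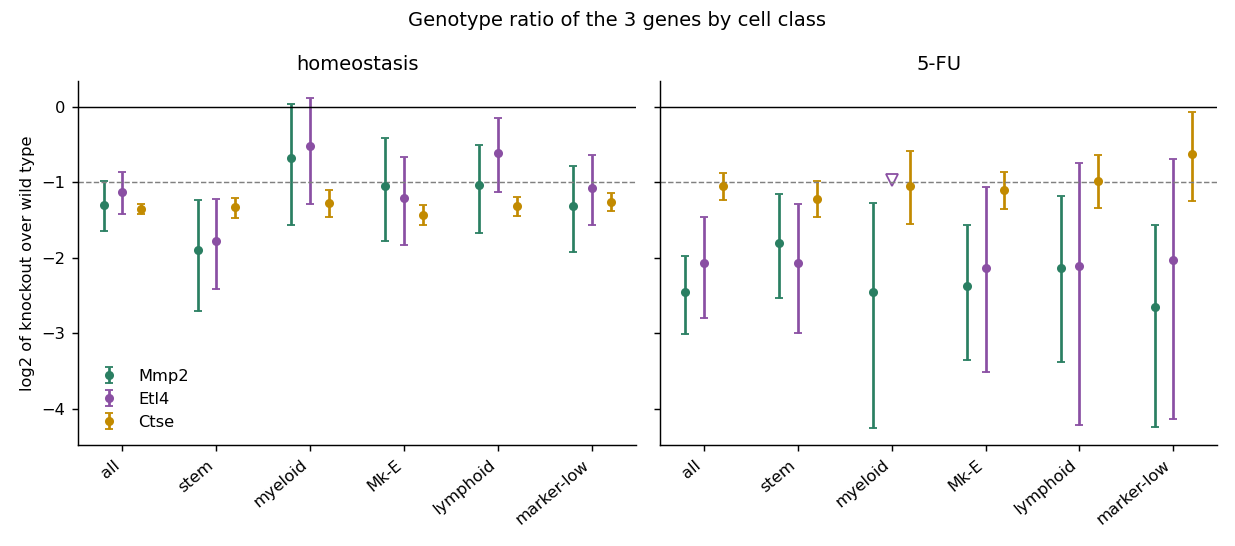
Log2 ratio of knockout over wild-type level (vertical axis) of Mmp2, Etl4 and Ctse in all kept cells, the 4 marker-positive classes (Mk-E, megakaryocyte-erythroid) and marker-low cells, with homeostasis on the left and 5-FU on the right. Bars are exact 95% counting intervals, the dashed line marks a 2-fold lower level and the open triangle is the upper bound of Etl4 in myeloid-positive cells after 5-FU (0 knockout UMIs). All points lie below 0, and at homeostasis the bars of Mmp2 and Etl4 in myeloid-positive cells cross it.

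UMIs of the 3 genes were found both inside and outside the stem gate in wild-type cells, and the part of free RNA in them was not measured. In wild-type cells at homeostasis, Etl4 was at 10.9 CPM in stem-positive and 8.03 CPM in all other cells, a log2 ratio of 0.44 (0.18 to 0.69). Mmp2 was at 7.84 and 6.71 CPM (log2 ratio 0.23, -0.07 to 0.51), and Ctse at 152 and 158 CPM (-0.05, -0.11 to 0.01). After 5-FU, Etl4 was at 2.35 and 2.36 CPM in wild-type stem-positive and other cells (-0.01, -0.54 to 0.53) and Ctse at 17.4 and 15.6 CPM (0.16, -0.04 to 0.35). Mmp2 was lower in the stem gate, at 3.02 against 6.45 CPM (-1.09, -1.498 to -0.71). By this gate only Etl4 at homeostasis was higher in wild-type stem-positive cells than in all other cells beyond counting error. This was not particular to the stem gate. Wild-type marker-low cells at homeostasis had Etl4 at 10.2 CPM (8.95 to 11.5), near the stem-positive level. Myeloid-positive and lymphoid-positive cells had 6.15 and 7.01 CPM. Mmp2 was at 7.97 CPM in these marker-low cells (6.89 to 9.17).

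Marker-low wild-type cells had the highest levels of Mmp2 and Etl4 after 5-FU. Mmp2 was at 10.7 CPM in them (8.38 to 13.4) and between 2.74 and 4.50 CPM in the marker-positive classes. Etl4 was at 4.76 CPM (3.28 to 6.68) and between 1.23 and 2.35 CPM in the classes. Ctse showed no such pattern, with 14.0 CPM in marker-low cells (11.3 to 17.1) and 14.4 to 17.4 CPM in the classes. In knockout cells the marker-low levels were 1.58 CPM for Mmp2 (6 UMIs) and 1.05 CPM for Etl4 (4 UMIs). Marker-low cells were the shallowest group, and the part of depth in these levels was not tested.

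**Figure D2:**
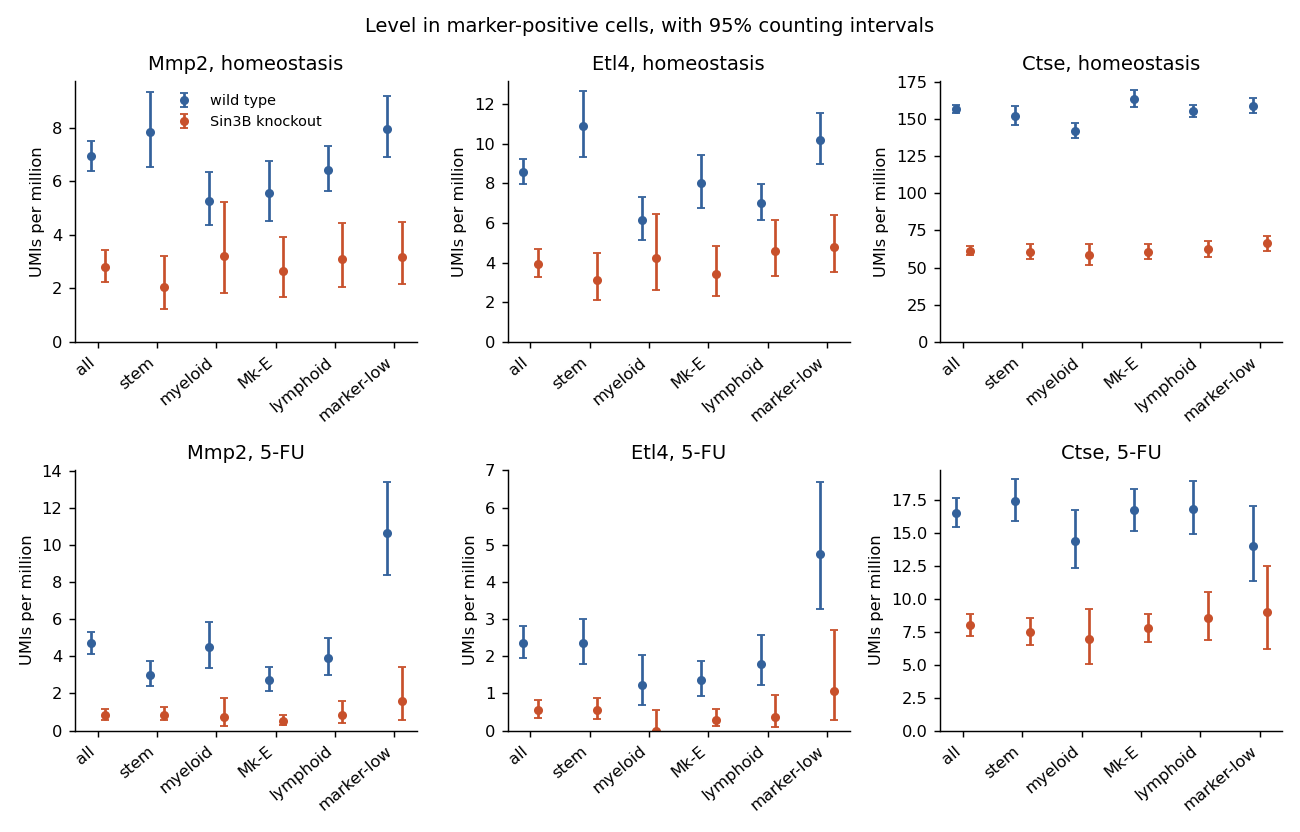
Level of each gene in CPM (vertical axis, from 0) by cell class, with wild type in blue, Sin3B knockout in orange, homeostasis in the upper row and 5-FU in the lower row. Bars are exact 95% Poisson intervals of 1 pool each. Ctse is nearly level across classes within a genotype, and after 5-FU the wild-type marker-low cells have the highest Mmp2 (10.7 CPM) and Etl4 (4.76 CPM).

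Because gates favour deep cells, the cells of each library were also divided into 5 equal bins by the share of their UMIs that fell on the 10 stem markers. These include Hlf, Mecom and Mllt3, which the gates did not count. Outside the wild-type stem gate at homeostasis they stood at 567, 651 and 192 CPM. The middle bin at homeostasis had a median of 15.9 stem marker UMIs per 10000, so these markers weigh heavily in the bins. In wild-type cells Etl4 increased along these bins, from 5.95 CPM in the lowest (4.92 to 7.14) to 14.5 CPM in the highest bin at homeostasis (12.4 to 16.9), and from 0.845 CPM (0.436 to 1.48) to 5.00 CPM after 5-FU (3.40 to 7.09). Mmp2 went from 5.54 CPM (4.55 to 6.69) to 9.20 CPM (7.54 to 11.1) at homeostasis, and its intervals overlapped after 5-FU, at 3.94 CPM (2.98 to 5.12) and 5.32 CPM (3.66 to 7.47). Ctse changed little at homeostasis, from 150 CPM (145 to 155) to 163 CPM (155 to 170.1), and went from 14.2 CPM (12.3 to 16.3) to 22.1 CPM (18.5 to 26.1) after 5-FU. The intervals of the lowest and highest wild-type bins were thus apart for Etl4 in both libraries, for Mmp2 at homeostasis and for Ctse after 5-FU. In knockout cells the lowest and highest bins of Etl4 were at 4.04 and 4.91 CPM at homeostasis and at 0.283 CPM (3 UMIs, 0.0584 to 0.827) and 1.43 CPM (9 UMIs, 0.655 to 2.72) after 5-FU, with overlapping intervals in each library. Here the highest bin was the shallowest, with a median of 5657 UMIs in wild-type cells at homeostasis against 7545.5 in the lowest bin, and 7114 against 11146 after 5-FU.

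The genotype ratio was below 0 on the log2 scale in every bin of each library for all 3 genes. In the highest bin it was -1.55 for Etl4 (-2.11 to -1.05), -1.49 for Mmp2 (-2.20 to -0.87) and -1.42 for Ctse (-1.57 to -1.28) at homeostasis. After 5-FU it was -1.75 for Etl4 (-3.06 to -0.70), -2.18 for Mmp2 (-3.68 to -1.06) and -1.41 for Ctse (-1.91 to -0.95). The interval included 0 only for Etl4 in the lowest bin, at homeostasis (-0.53, -1.29 to 0.11) and after 5-FU (-1.41, -4.04 to 0.31).

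**Figure D3:**
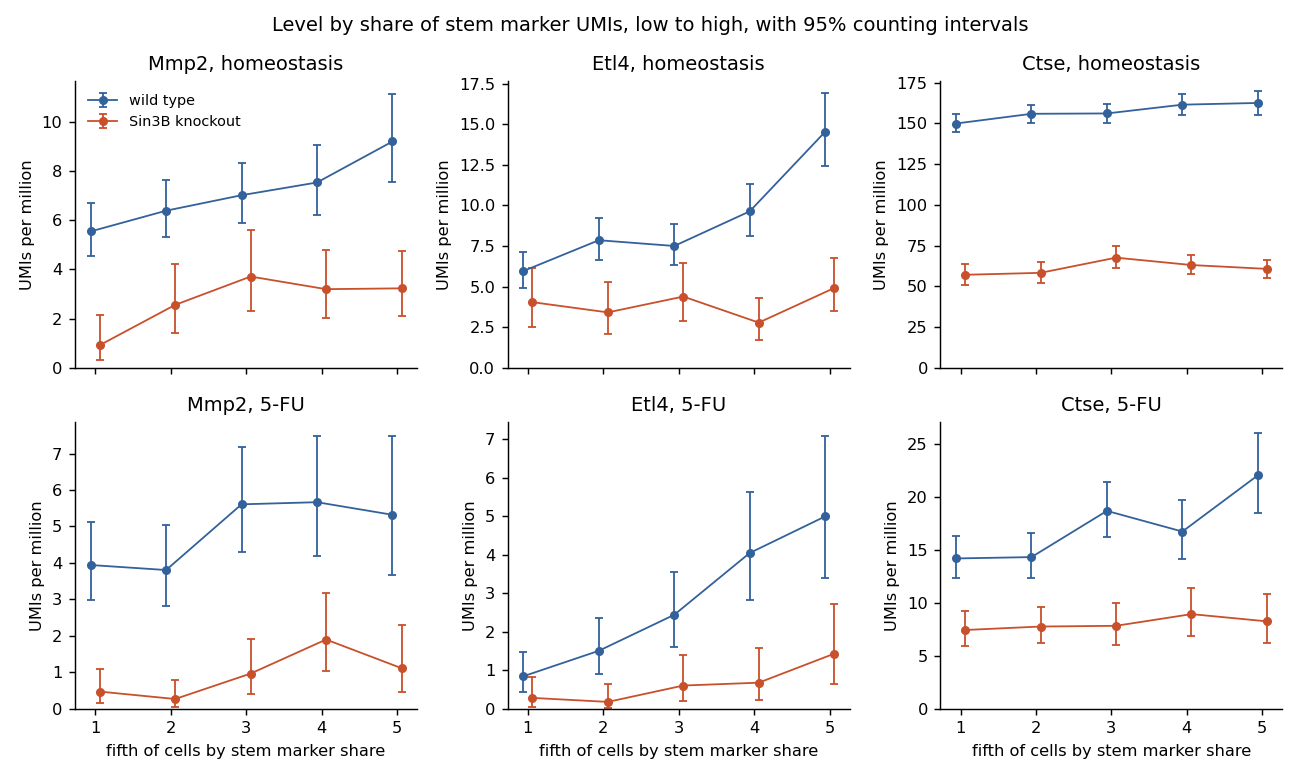
Level of each gene in CPM (vertical axis, from 0) in 5 equal bins of cells by the share of UMIs on the 10 stem markers, lowest to highest (horizontal axis), for wild type (blue) and Sin3B knockout (orange), with homeostasis above and 5-FU below. Bars are exact 95% Poisson intervals. Wild-type Etl4 climbs to 14.5 CPM at homeostasis and 5.00 CPM after 5-FU, and the knockout points lie below the wild-type points in every bin.

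Cells with UMIs of at least 2 of 6 division genes (Mki67, Top2a, Birc5, Cdk1, Ccnb1 and Ube2c), a choice made after the data had been seen, were compared with the other cells. The cycling cells were deeper, with wild-type medians of 11296 against 6276.5 UMIs at homeostasis and 15700 against 8219 after 5-FU. The part of depth and of free RNA in the levels below was not tested. In wild-type cells Mmp2 was lower in these cycling cells, at 5.13 against 7.96 CPM at homeostasis (log2 ratio -0.63, -0.91 to -0.37) and 2.00 against 6.57 CPM after 5-FU (-1.71, -2.23 to -1.24). Etl4 was lower too, at 7.01 against 9.48 CPM (-0.43, -0.67 to -0.20) and 1.16 against 3.17 CPM (-1.43, -2.15 to -0.81). In knockout cells at homeostasis the direction of Etl4 was the opposite, with 5.09 CPM in cycling and 3.45 CPM in other cells (0.57, 0.005 to 1.102), and after 5-FU it was lower in cycling cells there too, at 0.232 against 0.858 CPM (-1.79, -3.67 to -0.42). Wild-type Ctse was at 154 and 158 CPM at homeostasis (-0.04, -0.09 to 0.01) and lower in cycling cells after 5-FU, at 13.3 against 18.8 CPM (-0.49, -0.70 to -0.29). Knockout Ctse was lower in cycling cells at homeostasis, at 55.7 against 63.7 CPM (-0.19, -0.34 to -0.05). After 5-FU it was at 6.44 against 9.49 CPM there (-0.56, -0.88 to -0.24). Within cycling cells the knockout pool was 2.38-fold (1.51 to 4.16) and 4.15-fold (2.13 to 9.62) lower for Mmp2 at homeostasis and after 5-FU. For Ctse it was 2.76-fold (2.52 to 3.03) and 2.07-fold (1.68 to 2.55) lower. For Etl4 the ratio was 1.36 at homeostasis (0.997 to 1.94) and 4.65 after 5-FU (1.88 to 16.8).

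UMIs of Mmp2 were spread thinly over cells. At homeostasis 525 of the 552 wild-type cells with Mmp2 had 1 UMI, and no cell had more than 3. Of 622 wild-type cells with Etl4, 548 had 1 UMI, but a single cell had 9. In knockout cells at homeostasis a single cell held 10 of the 126 Etl4 UMIs, and the variance of Etl4 UMIs per cell was 1.95 times their mean. The ratio of variance to mean was 1.35 for wild-type Etl4 and 1.499 and 1.44 for Ctse (wild type and knockout) at homeostasis, and 1.05 to 1.26 for the other pools and genes. A ratio above 1 means more spread than Poisson counts of equal mean have, so the Poisson intervals can be too narrow. Unequal depth of cells also raises this ratio, and its part was not tested. Ctse had 2 or more UMIs in 3489 of 6731 positive wild-type cells, with a highest value of 14. Cells with Mmp2 had Etl4 in 7.43% of cases (5.38 to 9.94) and cells without it in 5.95% (5.49 to 6.44) among wild-type cells at homeostasis, with a median depth of 8025 and 6938 UMIs. Ctse was found in 65.9% of wild-type cells with Mmp2 and 65.2% of those without at homeostasis. It was found in 70.1% of those with Etl4 (66.3 to 73.7) and 64.9% of those without (64.0 to 65.9). Their median depth was 8126.5 and 6934 UMIs, and the part of depth in these shares was not tested.

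Free RNA could be examined in the homeostasis library, which had not been filtered for cells. Barcodes with 10 to 100 UMIs, which hold mostly free RNA, had Mmp2 at 32.4 CPM (24.0 to 42.7), Etl4 at 93.8 CPM (79.2 to 110.4), Ctse at 117 CPM (101 to 135) and Sin3b at 65.4 CPM (53.2 to 79.4). The Mmp2 and Etl4 levels there exceeded those of wild-type cells. Both genotypes shared this library, and how much of the UMIs in wild-type or knockout cells at homeostasis is free RNA was not tested. The same limit holds for the levels of Mmp2 and Etl4 by class and by bin. The 5-FU matrix holds called cells only.

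Bone marrow stroma is a known source of Mmp2, so markers of other cells were read beside it. Cells had been enriched for cKit, sorted as LSK and selected by a CD45 tag. How far these steps removed stromal cells or their RNA was not tested. A list of 7 stromal genes summed to 41.0 CPM (wild type) and 33.5 CPM (knockout) at homeostasis, and to 39.2 and 26.3 CPM after 5-FU. Pdgfrb made up 38.5 CPM (3242 of 3450 UMIs) and 25.5 CPM (822 of 1080) of the homeostasis sums. The rest of the list thus took a larger part of the knockout sum. After 5-FU the top gene was Pdgfrb in wild type, at 29.3 CPM (1543 of 2067 UMIs). In knockout cells it was the collagen gene Col1a2, at 13.5 CPM (591 of 1150 UMIs). Cxcl12 and Dcn had 0 UMIs in knockout cells at homeostasis, Cxcl12 and Col3a1 in wild-type cells after 5-FU, and Dcn in knockout cells after 5-FU. In wild-type cells at homeostasis Mmp2 was at 7.005 CPM in cells with a UMI of a stromal gene (6.02 to 8.11) and at 6.89 CPM in the others (6.24 to 7.60). After 5-FU these values were 5.71 CPM (4.66 to 6.92) and 4.18 CPM (3.53 to 4.92). Markers of endothelial cells (5 genes) summed to 48.0 and 52.5 CPM at homeostasis and 32.7 and 38.3 CPM after 5-FU, mostly from Emcn. Macrophage markers (3 genes) were at 5.83 and 3.45 CPM and at 1.82 and 2.58 CPM, those of mast cells and basophils (3 genes) at 34.3 and 21.8 CPM and at 33.7 and 24.4 CPM. B cell markers (3 genes) were at 2.63 and 6.49 CPM and at 3.62 and 0.961 CPM, and T cell markers (2 genes) stayed at or below 0.217 CPM in each pool, with Cd3e at 0.

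Related genes were compared over all kept cells. Of 23 other metalloproteinases and inhibitors in the tables, 14 had at least 50 UMIs in each library. Of these, 3 were lower in knockout cells beyond counting error in both libraries and 0 were higher, and the median log2 ratio was 0.00 at homeostasis and -0.10 after 5-FU. Mmp15, a membrane-type enzyme, was at 2.30 and 0.714 CPM at homeostasis (log2 ratio -1.66, -2.38 to -1.06) and 2.41 and 0.618 CPM after 5-FU (-1.94, -2.62 to -1.36). Mmp11, which encodes stromelysin-3, had log2 ratios of -0.91 (-1.39 to -0.47) and -0.76 (-1.24 to -0.31), and the inhibitor Timp2 -0.14 (-0.26 to -0.02) and -0.55 (-0.68 to -0.43). Mmp14, named here for its role with Mmp2 and not by the rule, had log2 ratios of -0.17 (-0.45 to 0.10) and -0.30 (-0.52 to -0.08).

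Of 20 other cathepsins, related proteases and cystatin inhibitors, 18 had enough UMIs. Among them 4 were lower and 5 higher in knockout cells beyond counting error in both libraries, with median log2 ratios of 0.03 and 0.01. Ctsg encodes a serine protease of neutrophil granules and is a myeloid marker of the gates. It was at 60.3 and 29.8 CPM at homeostasis (-1.01, -1.12 to -0.92) and 89.2 and 39.3 CPM after 5-FU (-1.18, -1.26 to -1.102). The myeloid gate, which counts Ctsg itself, took 19.2% of the wild-type pool and 10.8% of the knockout pool in the homeostasis library. In the 5-FU library it took 16.4% and 9.97%. What part such unequal class shares have in the ratios of related genes was not tested. Cst7, the inhibitor cystatin F, had log2 ratios of -0.53 (-0.70 to -0.37) and -0.62 (-0.81 to -0.44), and the cysteine protease Ctss -0.19 (-0.33 to -0.05) and -0.63 (-0.77 to -0.50). Ctsw, a protease of cytotoxic lymphocytes, was higher in knockout cells, with 0.48 (0.31 to 0.65) and 0.63 (0.50 to 0.77). Over all 13098 genes with enough UMIs in both libraries, 12.4% were lower and 11.1% higher in both beyond counting error, and the medians were 0.01 and -0.02. The relative of Etl4, Srcin1, had too few UMIs to be compared.

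**Figure D4:**
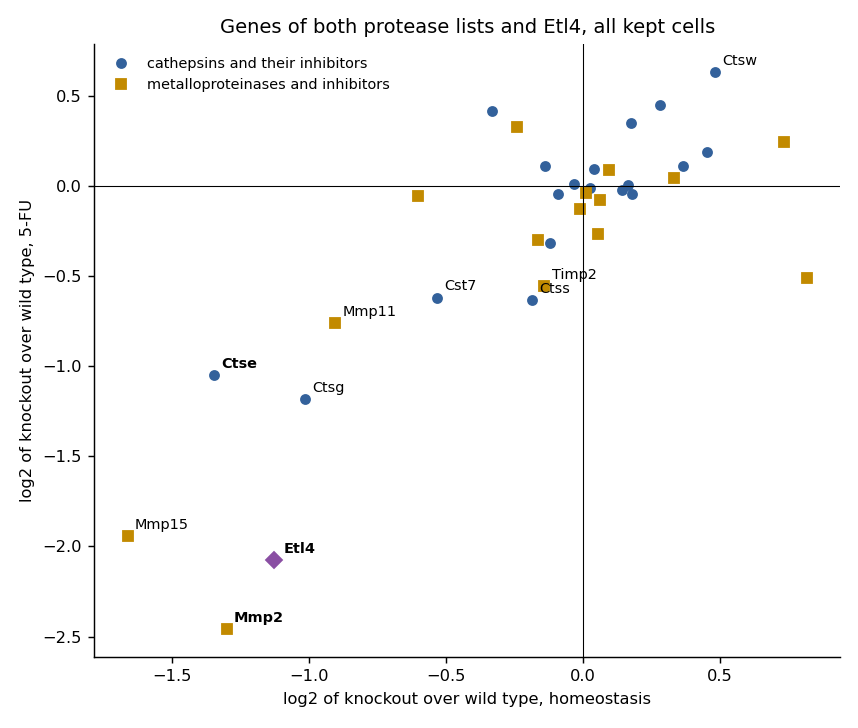
Log2 ratio of knockout over wild-type level at homeostasis (horizontal axis) and after 5-FU (vertical axis) in all kept cells, for Etl4 (purple diamond), cathepsins and their inhibitors (blue) and metalloproteinases and inhibitors (yellow) with at least 50 UMIs in each library. Each point is a gene, and no error is drawn. Most genes lie near 0 on both axes, and Mmp2 (-1.30 and -2.46) and Etl4 (-1.13 and -2.08) lie at the lower left with Mmp15.

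Genes within 1 Mb of each member were read in the same way. Mmp2 had 1 neighbour with at least 50 UMIs in each library, of 37 in the tables. This gene, Lpcat2, which encodes a phospholipid acyltransferase, starts 0.028 Mb from the start of Mmp2 on the same strand. It was at 25.8 CPM in wild type against 15.0 CPM in knockout at homeostasis (log2 ratio -0.79, -0.93 to -0.64) and 3.68 and 2.42 CPM after 5-FU (-0.60, -0.96 to -0.25). The noncoding gene Crnde, whose start lies 0.471 Mb before that of Mmp2 on the other strand, had enough UMIs at homeostasis only, with 105 in wild-type and 9 in knockout cells there (-2.09, -3.33 to -1.18) and 14 and 7 after 5-FU. It was named after its values had been seen. Around Etl4, 1 of 9 neighbours was lower and none higher in both libraries, the phosphoinositide kinase gene Pip4k2a, at -0.05 (-0.09 to -0.01) and -0.15 (-0.24 to -0.06). Around Ctse, 2 of 23 were lower, the stress kinase gene Mapkapk2 at -0.46 (-0.55 to -0.38) and -0.12 (-0.20 to -0.03) and Srgap2 at -0.10 (-0.17 to -0.04) and -0.22 (-0.33 to -0.11). The antisense gene Gm28857 was higher, at 1.31 (0.86 to 1.75) and 0.84 (0.51 to 1.17). Over all 13098 genes with enough UMIs in both libraries, 12.4% were lower and 11.1% higher in both. The lower shares beside Etl4 (11.1%) and Ctse (8.70%) were near that of all genes. The higher shares there, 0% and 4.35%, were below it, from few genes. For Mmp2 a share of 1 neighbour says little. Of the neighbours with enough UMIs in each library, Slc45a3 beside Ctse was 2-fold lower after 5-FU (-1.22, -2.20 to -0.37) and not at homeostasis (-0.26, -1.28 to 0.59), and none beside Etl4 or Mmp2 was in either library.

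**Figure D5:**
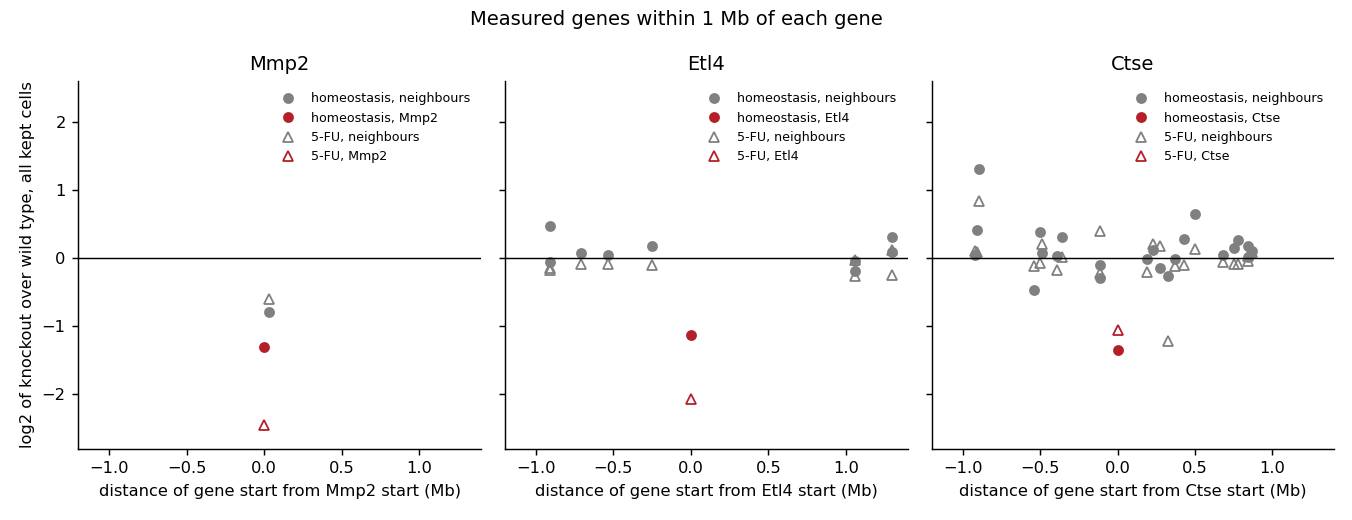
Log2 ratio of knockout over wild-type level in all kept cells (vertical axis) of genes with at least 50 UMIs in each library, against the distance of their start from that of Mmp2, Etl4 or Ctse in Mb (horizontal axis). Filled circles are homeostasis, open triangles 5-FU, the named gene is red, its neighbours grey, and no error is drawn. The 9 neighbours of Etl4 lie near 0 while Etl4 lies at -1.13 and -2.08, and Lpcat2 beside Mmp2 lies at -0.79 and -0.60.

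The patterns of the members were last compared with those of all genes with at least 100 UMIs in each library. The measure was Pearson's r over 20 points, the log2 levels in cells positive for 1 class only and in marker-low cells of each genotype and condition, centred within a condition. The points of a condition share a library and the members were selected for their genotype difference, so r is a description only. Some pools were small. In the 55 knockout cells positive for the myeloid class only after 5-FU, no UMI of Mmp2 or Etl4 was found. Their levels at that point were thus not measured. Over 12120 genes, Ctse was most like Sin3b itself (0.931), followed by Gm31597 (0.919), the tight junction gene Tjp1 (0.883), the laminin gene Lamc1 (0.868) and Tanc1 (0.858). The genes most like Mmp2 included Apob (0.857), Sin3b (0.853), Rreb1 (0.852) and Arhgef28 (0.846). Etl4 was most like Tmed5 (0.891), Gas5 (0.889), Gpr45 (0.888), Mpped2 (0.884) and Vldlr (0.852). Between the members r was 0.792 for Mmp2 and Etl4, 0.735 for Etl4 and Ctse, and 0.717 for Mmp2 and Ctse.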

How the data were processed

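Single-cell cDNA and hashtag libraries of LSK cells were analysed. The authors deposited raw UMI counts per gene and barcode, made with Cell Ranger, which per the file headers was not the same version for both libraries. The submitters' processing notes name mm9, but the tables give Ensembl IDs and no build, so positions come from GENCODE M21 (GRCm38). The homeostasis matrix was unfiltered, and cells were called from 2921 UMIs upwards, which is 10% of the 99th percentile of the 10000 largest barcodes. Gene names of this matrix came from the 5-FU feature list after the row order was checked. Gene levels across rows correlated at 0.919 in the given order and at most 0.389 when shifted.

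Hashtags were classified with HTODemux (Seurat 5.3.0, R 4.3.3, quantile 0.99), and cells with both tags were removed, so doublets within a genotype remain. Cells in the outer 2% of UMIs, genes or mitochondrial share, or with 2 or more UMIs of 9 lineage genes, were removed. UMIs were summed per genotype, condition and class (Python 3.11.15, scipy 1.17.1), and 0.5 UMIs were added for ratios. Intervals are exact Poisson for levels, Clopper-Pearson for shares and conditional binomial for ratios, all at 95%. Sums and their ratios were tested on simulated Poisson counts, and gates on a few made-up cells. Such counts hold no spread beyond Poisson, so the test cannot show that the intervals are wide enough for these data. No count model was fitted, because each group is 1 pool.

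The members and lists were chosen with earlier results of these data known. The gate of 2 markers was set after the detection of the markers had been seen, without using the members. Named genes were the members, up to 4 genes per list and the neighbours with the same direction beyond counting error in both conditions, ranked by mean absolute log2 ratio, and 5 genes per member by likeness, of which 1 is not reported here. The scaling, hashtag rule, filters, gates, depth and added UMIs were varied.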

Additional observations from a re-analysis of the deposited data

Results flagged for a closer look

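Cells to which HTODemux assigned no tag were used in no comparison, yet they held UMIs of all 3 genes. At homeostasis (6134 cells) Mmp2 was at 3.94 CPM (3.35 to 4.60), Etl4 at 4.66 CPM (4.02 to 5.37) and Ctse at 73.9 CPM (71.3 to 76.6), with Sin3b at 29.2 CPM. Without the quality trim, which these cells had not passed through, tagged wild-type cells were at 6.80, 8.60 and 156 CPM for Mmp2, Etl4 and Ctse, with Sin3b at 80.8 CPM, and tagged knockout cells at 2.90, 3.71 and 61.6 CPM, with Sin3b at 23.3 CPM. After 5-FU (3221 cells, median depth 4071 UMIs) untagged cells had Mmp2 at 1.70 CPM (1.15 to 2.43), Etl4 at 0.966 CPM (0.563 to 1.55) and Ctse at 12.6 CPM (11.0 to 14.4), with Sin3b at 21.7 CPM. All 3 genes and Sin3b lay between the levels of the tagged genotypes in both libraries. Which genotype the untagged cells belong to was not tested.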

How the results depend on the processing

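The 30 log2 ratios (3 genes, all kept cells and 4 classes, 2 conditions) were recomputed under 14 alternatives, which gave 419 values. Of these, 418 stayed below 0, 1 changed sign, and 21 (this one included) left the counting interval of the reported ratio. Some values could not move. Changes of the gates leave the ratios over all kept cells as they are, and dropping stem markers leaves the other 3 classes as they are. Of the 30 ratios, 28 had an interval wholly below 0. Under the alternatives that give an interval, this interval reached 0 in 20 cases, 12 of them with thinned cells, which have fewer UMIs, and none over all kept cells. In 8 cases, all in myeloid-positive cells at homeostasis, an interval that had included 0 no longer did. At 15 values with an interval the knockout pool had 0 UMIs, so that the value depends on the UMIs added. The same holds for a value without an interval, -4.03 for Etl4 in myeloid-positive cells after 5-FU. There the cells were weighted to the same distribution of stem marker share. The mean over cells gave no value for Etl4 in myeloid-positive cells after 5-FU, where the knockout pool had 0 UMIs. With cells thinned to 4000 UMIs, Ctse in lymphoid-positive cells after 5-FU turned to 0.22. The same thinning gave -0.80 for Ctse and -0.83 for Etl4 in stem-positive cells and -0.28 for Etl4 in lymphoid-positive cells after 5-FU. At homeostasis it gave Ctse -1.49 in stem-positive, -1.22 in megakaryocyte-erythroid-positive and -1.54 in lymphoid-positive cells, and Etl4 -0.18 and -1.82 in the last 2 classes. Cells positive for 1 class only gave, at homeostasis, -2.92 for Mmp2 and -2.73 for Etl4 in the stem gate, -1.77 for Etl4 in the myeloid gate and -1.47 for Ctse in the lymphoid gate. After 5-FU they gave -2.18 for Ctse in the myeloid and -4.56 for Mmp2 in the lymphoid gate, the latter at 0 knockout UMIs, where only the upper limit of -1.53 holds. A tag with at least 80% of hashtag UMIs gave Etl4 -1.71 in all kept and -1.16 in lymphoid-positive cells and Ctse -1.19 in lymphoid-positive cells at homeostasis. Gating without the stem markers that differ between genotypes gave -2.94 for Mmp2 and -1.03 for Etl4 at homeostasis, and a gate of 3 markers gave -0.61 for Ctse in lymphoid-positive cells after 5-FU. The other alternatives moved no ratio beyond its interval. The share of genes at least 2-fold lower was 3.83% and 3.65% (homeostasis and 5-FU) with a minimum of 10 UMIs and 1.15% and 0.718% with 200 UMIs, against 1.88% and 1.65%. The causes were not tested. Depth limits Mmp2 and Etl4 most, since knockout classes held between 0 and 43 UMIs of them. No paired analysis was possible because each condition has 1 pool per genotype.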
